A study of Mus musculus with 58 samples.

Results

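The sirtuin genes Sirt1 to Sirt7 and Nampt were read out by symbol in every RNA library, which gave 8 genes of the 55376 symbols in the count tables. They were chosen by name and not by their values. All 8 were protein-coding genes with counts in every library and passed the filter on low counts in each comparison. Messenger RNA was measured in hematopoietic stem cells (HSCs) sorted from the bone marrow of male C57BL/6 mice labelled wild type (WT), in 6 groups set by feeding and age (the diet groups), and in HSCs recovered from transplant recipients after an shRNA knockdown.

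The 3 old groups were 24 to 26 months of age. OAL mice were fed ad libitum. OCR mice had lived on a 40% caloric restriction (CR) since the age of 3 to 4 months, and OCRRF mice were such restricted animals returned to ad libitum feeding for 4 weeks. The young groups were restricted at 3 to 4 months of age. YAL mice were fed ad libitum, YCR mice had 1 week at 20% followed by 3 weeks at 40% restriction, and YCRRF mice were then refed for 4 weeks. In the transplant experiment, HSCs of aged mice carried lentiviral hairpins against Kdr (the VEGF receptor VEGFR2), labelled GFP_Kdr, or against both Kdr and Bmpr1a (a type I receptor for bone morphogenetic proteins), labelled Double_KdrBmpr, the latter with either of 2 Bmpr1a hairpins. Their controls were labelled GFP_Scramble and Double_Scramble. About 500 cultured cells went into each lethally irradiated young female CD45.1 recipient, and CD45.2+ HSCs were sorted again, so every knockdown value is from cells that had been cultured, transduced and transplanted, controls included.

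Sirtuins are enzymes that remove acetyl and other acyl groups from proteins and consume NAD in each cycle. Sirt1, Sirt6 and Sirt7 act mostly in the nucleus, Sirt2 in the cytoplasm, and Sirt3, Sirt4 and Sirt5 in mitochondria. Nampt is the rate-limiting enzyme that salvages nicotinamide into NAD, and the family is known in HSCs for its part in oxidative stress resistance and in the mitochondrial protein-folding response during ageing and fasting.

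Of 34 RNA libraries, 22 were from the diet groups (4 per group, and 2 for OCRRF) and 12 from transplanted cells (4 Kdr knockdown, 4 double knockdown, 2 of each scramble). Total counts ranged from 27979109 to 34385179 in OAL and OCR, 23497989 and 29180038 in OCRRF, 11102898 to 36579392 in the young groups, and 35657999 to 44780217 in the transplanted cells. The libraries of old mice had counts for 42071 to 46646 genes and those of young mice for 22209 to 33496. Odorant and vomeronasal receptor genes, which HSCs are not known to use, summed to 530 to 1486 CPM (read counts scaled to library size) in old and to 66.5 to 474 CPM in young libraries. Age and this difference between libraries cannot be told apart in any comparison of old with young groups. The HSC markers Slamf1, Procr, Hlf, Mecom, Kit, Ly6a, Fgd5, Hoxb5 and Hoxa9 had counts in every group. Kit was the most abundant of them, with diet group means from 1236 CPM (OCRRF) to 1687 CPM (YCR).

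One library stood apart for these genes. YCRRF replicate 3 had 17.1 CPM of Sirt1 against 47.0 ± 5.60 (SD, n = 3) in the other YCRRF libraries, 43.9 CPM of Sirt2 against 72.1 ± 2.86, and 17.7 CPM of Sirt5 against 31.9 ± 2.48. It was the lowest of the 22 diet libraries for Sirt1, Sirt2, Sirt4 and Sirt5 and the highest for Sirt6, at 21.3 against 11.6 ± 3.22 CPM. Its depth of 33540890 counts was close to the group median, and its receptor background of 473 CPM was the highest of the YCRRF libraries. Its counts also differed more widely, with a chi-square per degree of freedom of 153 to 336 against the other YCRRF libraries. Among those libraries it was 28.4 to 56.4. Log2 fold changes of the refed young group are therefore given with and without it.

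Per kilobase of exon, Sirt3 was the most abundant of the 8 transcripts. Over the 22 diet libraries its mean level was 31.9 CPM per kb, above 94.6% of 35069 genes. Sirt7 followed at 17.9, Nampt at 15.2 and Sirt2 at 13.1 CPM per kb. Sirt1 at 7.62, Sirt4 at 6.17, Sirt5 at 5.19 and Sirt6 at 4.64 CPM per kb were the 4 less abundant genes. Sirt3 ranked first in each diet group and each transplant group, Nampt second in the old groups, and Sirt7 second in the young and transplant groups.

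**Figure D1:**
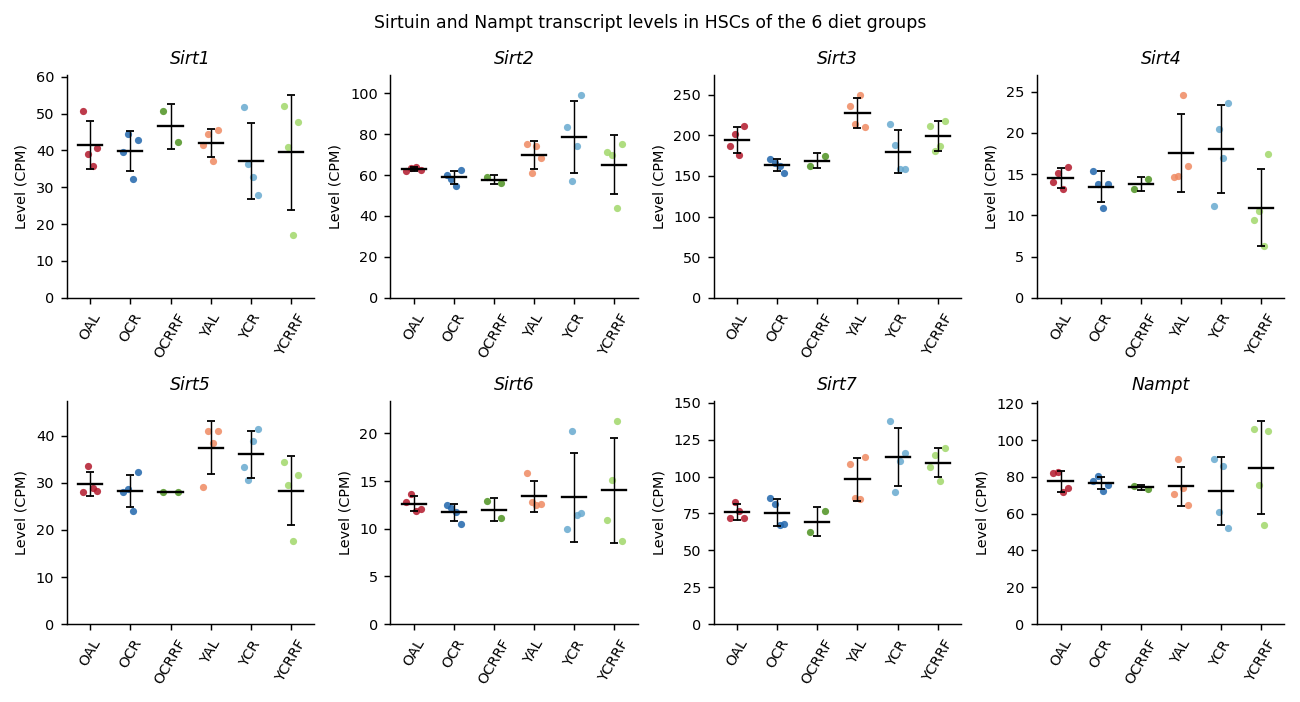
Level of each transcript in CPM (linear axis from 0) in each library of the 6 diet groups. Points are libraries, horizontal bars are group means and error bars are SD (n = 4, and n = 2 for OCRRF). Sirt3 in OCR (153 to 171 CPM) sits below OAL (176 to 211 CPM), Sirt7 in OAL (71.8 to 83.1 CPM) sits below YAL (85.1 to 113 CPM), and the low YCRRF point for Sirt1, Sirt2, Sirt4 and Sirt5 is the same library.

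Among the mitochondrial enzymes, Sirt3 (chr7:140863666-140882309, minus strand, GRCm38), the main mitochondrial deacetylase, had its highest group mean in YAL. Its levels were 187, 202, 176 and 211 CPM in OAL, 171, 166, 163 and 153 CPM in OCR, and 162 and 175 CPM in OCRRF. In the young groups they were 236, 215, 250 and 211 CPM in YAL, 214, 189, 159 and 159 CPM in YCR, and 212, 181, 187 and 217 CPM in YCRRF. All OCR and OCRRF libraries lay below all OAL libraries, whereas YCR and YAL overlapped by 1 library. The order of the group means was YAL, YCRRF, OAL, YCR, OCRRF and OCR, and the ranges of each neighbouring pair overlapped. This order depends on the scaling, since with TMM within age YCR was the lowest group in place of OCR. The OCR level was 0.851-fold that of OAL (log2 fold change -0.23 ± 0.080 SE, 95% confidence interval 0.759 to 0.954-fold, unadjusted p = 0.00728, edgeR adjusted p = 0.0965), and it did not pass the test. The G2/M markers summed to 429 to 624 CPM in OCR and 149 to 171 CPM in OAL, and the erythroid markers to 32.4 to 65.1 and 33.4 to 208.6 CPM, with Top2a and Hbb-bs the most abundant and none at 0, and both Hbb-bs (-2.22) and Hba-a1 (-2.17) called lower. The plasma cell markers, led by Xbp1, summed to 137 to 179 CPM in OCR and 142 to 432 CPM in OAL, with Igkc (-7.36) and Jchain (-5.04) called lower although the groups overlapped for each. Cd68 of the monocyte and macrophage list (15.1 against 8.62 CPM) and Nkg7 of the T and NK cell list (19.3 against 11.1 CPM) were called higher, and the HSC markers Fgd5 (-0.50), Ly6a (-0.47) and Procr (-0.46) lower. The part of these markers in the Sirt3 value was not tested. Against the same OAL libraries, OCRRF was at 0.861-fold (0.766 to 0.968, adjusted p = 0.106), and over the other settings tried the log2 fold change ran from -0.28 to -0.07 and the adjusted p from 0.0183 to 1. In OCRRF against OAL, Mpo (2.52) and Ms4a1 (1.45) were called higher and Gp9 (-0.43), Hlf (-0.40) and Kit (-0.37) lower. Their part in the Sirt3 value was not tested. YCR was at 0.797-fold of YAL (0.679 to 0.937, adjusted p = 0.33). There the G2/M markers summed to 312 to 398 CPM in YCR and 216 to 276 CPM in YAL, with Top2a called (0.68, adjusted p = 0.0288). The 4 megakaryocyte markers, led by Itga2b, summed to 231 to 386 and 163 to 240 CPM with none called, and the part of either list was not tested. In bulk RNA a smaller number of cells with the transcript and less transcript per cell cannot be told apart. The Sirt3 gene shares 418 exonic bases with Ric8a and 342 with Psmd13 on the opposite strand. Whether the counting used strand is not given in the sources used here, so part of its count is uncertain.

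Sirt4, a mitochondrial lipoamidase and ADP-ribosyltransferase, and Sirt5, which removes succinyl and malonyl groups, were less abundant. Sirt4 (chr5:115478010-115484725, minus strand) was at 14.0, 15.1, 13.2 and 15.9 CPM in OAL, 15.4, 13.8, 10.9 and 13.8 CPM in OCR, and 13.2 and 14.4 CPM in OCRRF. In the young groups it was at 14.7, 14.8, 24.6 and 16.0 CPM in YAL, 11.2, 20.5, 16.9 and 23.6 CPM in YCR, and 9.46, 10.5, 6.28 and 17.4 CPM in YCRRF. The old libraries lay close together and the young ones spread widely, with replicate 3 of YAL above the rest of its group. The YCRRF mean was 0.596-fold that of YCR (0.340 to 1.04, unadjusted p = 0.0669, adjusted p = 0.736). It was 0.624-fold that of YAL (0.368 to 1.06, adjusted p = 0.995). Without YCRRF replicate 3 the log2 fold changes went from -0.75 to -0.55 and from -0.68 to -0.49.

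Sirt5 (chr13:43365496-43395203, plus strand) was at 28.1, 33.5, 29.0 and 28.3 CPM in OAL, 28.0, 28.7, 24.0 and 32.3 CPM in OCR, and 28.1 and 28.1 CPM in OCRRF. Its young levels were 29.2, 41.1, 38.5 and 41.1 CPM in YAL, 33.5, 30.6, 39.0 and 41.4 CPM in YCR, and 34.5, 29.5, 17.7 and 31.6 CPM in YCRRF. The 3 old groups overlapped, and 3 of 4 YAL libraries lay above every old library. OCR was at 0.963-fold of OAL (log2 interval -0.28 to 0.17) and YCR at 0.974-fold of YAL (-0.42 to 0.34).

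Among the nuclear enzymes, Sirt1 (chr10:63319005-63381704, minus strand), which deacetylates transcription factors such as p53 and FOXO proteins, was at 50.7, 38.9, 35.8 and 40.6 CPM in OAL, 39.5, 44.4, 32.2 and 42.9 CPM in OCR, and 50.8 and 42.3 CPM in OCRRF. The young libraries had 41.4, 44.4, 37.1 and 45.6 CPM in YAL, 51.7, 36.4, 32.9 and 27.8 CPM in YCR, and 52.1, 41.0, 17.1 and 47.7 CPM in YCRRF. All 6 groups overlapped, and the group means spanned 1.25-fold against 3.05-fold between the highest and lowest library. OCR was at 0.969-fold of OAL (0.824 to 1.14, adjusted p = 0.911).

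The RefSeq start of Sirt1 lies inside the annotated gene, and the accessible peak over it is centred 42654 bases from the outermost annotated start. The promoter is shown because this family member is the one most often named for the response to fasting, and it holds the E-box hexamer CACGTG, a site for basic helix-loop-helix factors, at 2 places (capitals), as a palindrome on both strands. The hexamer occurs in 7.15% of 32851 RefSeq promoters of the same length. None of the promoters of the other 7 genes held it, which says only that these letters are not in those windows.
Sirt1 promoter, 250 bases before to 50 after the RefSeq start, chr10:63338986-63339285, minus strand, GRCm38.p6: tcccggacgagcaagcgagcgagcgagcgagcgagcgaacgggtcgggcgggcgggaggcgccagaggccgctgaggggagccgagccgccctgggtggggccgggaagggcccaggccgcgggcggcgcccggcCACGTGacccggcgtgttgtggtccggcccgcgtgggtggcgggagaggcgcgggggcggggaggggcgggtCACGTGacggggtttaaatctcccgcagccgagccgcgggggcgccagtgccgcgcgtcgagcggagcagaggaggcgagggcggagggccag

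Sirt6 (chr10:81621785-81627797, minus strand), a chromatin deacetylase that acts in DNA repair, was the least abundant member per kilobase in the old groups. Its levels ran from 10.5 to 13.6 CPM in the 10 old libraries. In the young libraries they ran from 12.4 to 15.8 in YAL, 9.96 to 20.2 in YCR and 8.76 to 21.3 CPM in YCRRF. The groups overlapped, and the 3 widest ranges were the young ones. OCR was at 0.938-fold of OAL (log2 interval -0.35 to 0.17, adjusted p = 0.813).

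Sirt7 (chr11:120618372-120625240, minus strand), a nucleolar and chromatin deacetylase, was the one member with a gap between neighbouring groups. Its levels were 71.8, 83.1, 76.5 and 71.8 CPM in OAL, 85.5, 81.2, 67.5 and 67.7 CPM in OCR, and 62.6 and 76.4 CPM in OCRRF. In young HSCs they were 109, 85.7, 85.1 and 113 CPM in YAL, 138, 89.4, 111 and 116 CPM in YCR, and 106, 115, 97.0 and 119 CPM in YCRRF. The order of the means was YCR, YCRRF, YAL, OAL, OCR and OCRRF. Each OAL library lay below each YAL library, by 75.8 ± 5.36 against 98.1 ± 14.8 CPM (SD, n = 4). Between diets of 1 age the ranges of Sirt7 overlapped, at 1.01-fold for OCR to OAL (0.883 to 1.15) and 1.17-fold for YCR to YAL (0.932 to 1.46, adjusted p = 0.718). Sirt7 shares 124 exonic bases with Mafg on the same strand.

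Sirt2 (chr7:28766735-28788661, plus strand), the cytoplasmic tubulin deacetylase, ran from 54.6 to 64.0 CPM in the old libraries. In the young it ran from 60.8 to 75.4 CPM in YAL, 57.3 to 99.2 CPM in YCR and 43.9 to 75.4 CPM in YCRRF. Both OCRRF libraries (59.2 and 56.2 CPM) lay below the 4 OAL libraries (61.9 to 64.0 CPM), at 0.909-fold (0.810 to 1.02, unadjusted p = 0.0982, adjusted p = 0.268). OCR was at 0.947-fold of OAL (0.841 to 1.06).

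Nampt (chr12:32819545-32853349, plus strand), the salvage enzyme that supplies NAD, had group means that spanned 1.18-fold (1.17 and 1.18-fold under 2 other scalings). It was at 82.0, 82.9, 71.7 and 73.7 CPM in OAL, 77.9, 80.4, 72.5 and 75.6 CPM in OCR, and 75.2 and 73.4 CPM in OCRRF. The young libraries had 70.8, 89.8, 74.1 and 64.6 CPM in YAL, 89.6, 61.1, 85.8 and 52.2 CPM in YCR, and 106, 75.5, 53.7 and 105 CPM in YCRRF. The old groups overlapped almost completely, and YCR and YCRRF each held both low and high libraries. OCR was at 0.999-fold of OAL (log2 interval -0.17 to 0.17, adjusted p = 0.995) and YCR at 0.973-fold of YAL (-0.43 to 0.35, adjusted p = 0.979). With all 4 libraries the log2 fold change of YCRRF was 0.19 against YAL (adjusted p = 0.995) and 0.22 against YCR (adjusted p = 0.938). Without YCRRF replicate 3 these values were 0.35 (95% interval -0.0042 to 0.71, adjusted p = 0.956) and 0.39 (-0.07 to 0.85, adjusted p = 0.597).

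Set against the whole transcriptome, no member was called in any diet comparison by edgeR (adjusted p under 0.05 and fold over 1.2). Between OCR and OAL, 5.57% of 27150 genes were called and 0 of 8 members were, with 1 member (Sirt3) and 16.2% of all genes at an unadjusted p under 0.05. Between OCRRF and OCR, 3.41% of 32577 genes and 0 of 8 members were called, 0 at an unadjusted p under 0.05. Between OCRRF and OAL it was 4.14% of 31816 genes and 0 of 8 members, with Sirt3 the 1 member at an unadjusted p under 0.05, as were 26.9% of all genes. In that last comparison DESeq2 called 1 member, Sirt3 (-0.28, adjusted p = 0.0183), and in the first pair it called 0. These 3 comparisons share libraries and are not independent of each other.

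A p that misses the threshold does not show that levels were equal, so the intervals give the sizes these data allow. Every 95% interval of OCR against OAL for the 8 members lay between 0.759 and 1.15-fold, with a median log2 fold change of -0.07 over the members and 0.02 over all genes. The median over the members was -0.05 for OCRRF against OCR beside 0.11 over all genes, and -0.09 for OCRRF against OAL beside 0.12. With other scalings the median of the members ran from -0.12 to 0.09 and from -0.15 to 0.05 in these comparisons, while that of all genes ran from 0.04 to 0.24 and from 0.06 to 0.26, so the sign of the members' median depends on the scaling there.

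In young HSCs, 0.364% of 18680 genes were called between YCR and YAL and 0 of 8 members were, with Sirt3 the 1 member at an unadjusted p under 0.05, as were 9.29% of all genes. The intervals of the 8 members ran from 0.664 to 1.58-fold. Between YCRRF and YCR, 0.0102% of 19535 genes and 0 of 8 members were called, 0 at an unadjusted p under 0.05, with intervals from 0.340 to 1.80-fold. Between YCRRF and YAL, 0% of 19334 genes were called (714 at an unadjusted p under 0.05, 15 called by DESeq2) and 0 of 8 members, 0 at an unadjusted p under 0.05. DESeq2 called 0 members in each of the young comparisons. Without YCRRF replicate 3 the members called stayed at 0 in both refeeding comparisons. Against YAL, the log2 fold change without it went from -0.09 to 0.16 for Sirt1, from -0.10 to 0.05 for Sirt2 and from 0.08 to -0.21 for Sirt6, so these signs rest on that library. Against YCR it went from 0.07 to 0.32 for Sirt1, from -0.29 to -0.14 for Sirt2 and from 0.06 to -0.21 for Sirt6. For Sirt5 it went from -0.40 to -0.23 against YAL and from -0.37 to -0.20 against YCR. Sirt3 and Sirt7 kept their signs, at -0.19 and 0.16 against YAL with all 4 libraries and -0.16 and 0.21 without it, and at 0.13 and -0.07 against YCR with all 4 and 0.16 and -0.01 without it. The 7 granulocyte markers summed to 264.7 to 1610 CPM in YCRRF and 2.66 to 357 CPM in YCR, with S100a8 the most abundant in YCRRF, Mpo in YCR and none at 0 in all libraries of either group. All 7 had a log2 fold change above 0 (median log2 fold change 3.38 beside 0.02 over all genes). The 10 G2/M markers, led by Top2a, were all below 0 (median -0.70), with sums of 92.8 to 263 CPM in YCRRF and 312 to 398 CPM in YCR. The 4 plasma cell and 4 megakaryocyte markers were all below 0 too (medians -4.01 and -0.70). Cd79b of the B cell list was at a mean of 45.2 CPM in YCRRF and 52.4 CPM in YAL. None of these passed the test, and their part in the sirtuin values was not tested. In YCR the plasma cell markers (Jchain, Sdc1, Xbp1 and Igkc) summed to 200.1 to 1461 CPM, against 209.9 to 260.9 CPM in YAL, with Igkc the most abundant in YCR, Xbp1 in YAL and none at 0. The B cell marker Ighm was at a mean of 141.9 CPM in YCR and 33.7 CPM in YAL. None of these markers passed the test, and their part in these values was not tested.

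Whether old and young HSCs answered restriction differently was tested as the difference of both contrasts. Of 28328 genes 0.0318% were called, and 0 of 8 members were, by edgeR and by DESeq2, 0 of them at an unadjusted p under 0.05. The log2 fold change of Sirt3 was -0.23 in old and -0.33 in young HSCs, a difference of 0.09, old minus young (edgeR adjusted p = 0.937, interval 0.880 to 1.29-fold). For Sirt2 the difference was -0.27 (adjusted p = 0.757, 0.639 to 1.08-fold), and for Nampt it was 0.04 (0.773 to 1.37-fold).

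**Figure D2:**
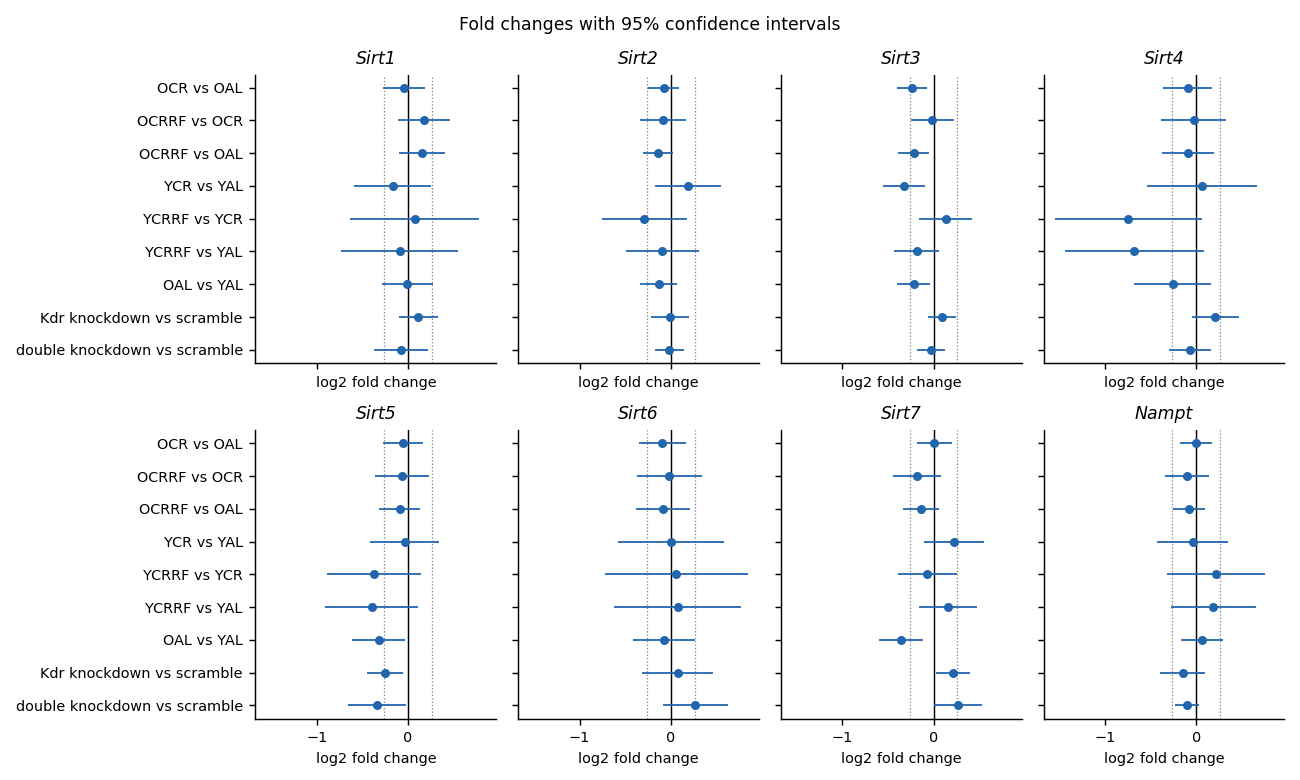
Log2 fold change of each member in 9 comparisons (edgeR). Points are estimates, bars are 95% confidence intervals, the solid line marks no change and the dotted lines a 1.2-fold change either way. The intervals are narrow in the old and transplant comparisons and widest for the young refed group, where Sirt4 reaches -0.75 against YCR.

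Of the comparisons made, OAL against YAL had the largest share of called genes, and Sirt7 there had the lowest adjusted p of any member by edgeR, though not by DESeq2. Between OAL and YAL, 14.8% of 23525 genes were called. Of the members 0 of 8 were called by edgeR, 3 had an unadjusted p under 0.05 (30.8% of all genes did), and DESeq2 called 1 (Sirt7, adjusted p = 0.0487). Sirt7 in OAL was at 0.780-fold of YAL (log2 fold change -0.36 ± 0.111 SE, 0.658 to 0.924-fold, unadjusted p = 0.00808, adjusted p = 0.0518). Sirt5 was at 0.800-fold (0.652 to 0.981, adjusted p = 0.128) and Sirt3 at 0.859-fold (0.760 to 0.971, adjusted p = 0.0902). Nampt was at 1.05-fold (0.893 to 1.23) and Sirt1 at 0.994-fold (0.819 to 1.21). The median over the members was -0.18, beside 0.05 over all genes. With other scalings these medians ran from -0.18 to -0.07 and from 0.05 to 0.16. Without YAL replicate 1 Sirt5 passed the test (-0.43, adjusted p = 0.0245), and without YAL replicate 2 or 3 Sirt7 did (-0.43 for each, adjusted p = 0.0214 and 0.0219). Markers of other cells moved with age as well. The B cell markers Cd79a, Cd79b, Ms4a1 and Ighm were each lower in OAL and at 0 in neither group. Cd79b, the most abundant of them, was at 34.9 CPM in OAL and 52.4 CPM in YAL, and Ighm at 1.16 and 33.7 CPM. The multipotent progenitor markers Flt3, Cd34 and Cd48, 3 of 3, were lower too. Of the G2/M markers 4 of 10 were called lower, namely Top2a (-0.83), Cdk1 (-0.99), Cdc20 (-0.85) and Ccnb1 (-0.72), and the list summed to 149 to 171 CPM in OAL and 216 to 276 CPM in YAL. Also called lower were the erythroid genes Car1 and Klf1 (2 of 6), Mpo (1 of 7 granulocyte markers) and Ly6c2 (1 of 4 monocyte and macrophage markers). Called higher were Itga2b (1 of 4 megakaryocyte markers), Jchain (1 of 4 plasma cell markers) and Cd3e (1 of 2 T and NK cell markers tested). For Mpo, Ly6c2 and Jchain the groups overlapped. Their part in the sirtuin values was not tested.

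In the transplanted cells, Kdr itself was at 1.93 to 3.28 CPM in the 4 Kdr knockdown libraries and at 6.04 and 6.07 CPM in their scramble (log2 fold change -1.35, adjusted p = 0.247). In the double knockdown it was at 1.24, 0.555, 1.60 and 1.35 CPM against 3.97 and 4.62 CPM (-1.86, adjusted p = 0.272). The target was lower in each knockdown library, although neither difference passed the test. Bmpr1a was at 4.44, 0.656, 2.22 and 0.595 CPM in the double knockdown against 5.21 and 4.43 CPM (-1.29, adjusted p = 0.602), and 1 knockdown library overlapped its controls.

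Sirt5 and Sirt7 had the lowest p-values of the 8 genes in both knockdowns. Sirt5 was at 32.9, 34.8, 33.7 and 34.6 CPM with the Kdr hairpin and 40.4 and 40.7 CPM in GFP_Scramble. With both hairpins it was at 25.7, 36.3, 32.1 and 29.0 CPM, against 39.3 and 38.7 CPM in Double_Scramble. Each knockdown library lay below both of its scramble libraries. The fold was 0.838 (0.732 to 0.959, unadjusted p = 0.0159, adjusted p = 0.444) and 0.790 (0.631 to 0.988, unadjusted p = 0.0411, adjusted p = 0.48), and neither passed the test.

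Sirt7 was at 102, 111, 111 and 101 CPM with the Kdr hairpin and 96.2 and 87.0 CPM in GFP_Scramble. It was at 94.2, 119, 98.8 and 120 CPM with both hairpins and 92.8 and 86.6 CPM in Double_Scramble. Each knockdown library lay above both of its scramble libraries, at 1.16-fold (1.02 to 1.32, adjusted p = 0.506) and 1.21-fold (1.01 to 1.44, adjusted p = 0.487). Sirt4 in the Kdr knockdown (22.4 to 24.5 CPM) also lay above its scramble (18.9 and 21.3 CPM, 1.16-fold, unadjusted p = 0.0977), and Nampt in the double knockdown (72.2 to 75.7 CPM) lay below its scramble (78.8 and 81.4 CPM, 0.931-fold, unadjusted p = 0.117). Each control had 2 libraries. The multipotent progenitor markers, with Cd34 the most abundant, summed to 493 to 589 CPM in the Kdr knockdown and 399 to 475 CPM in its scramble, and none of them is at 0. In the double knockdown they summed to 592 to 925 CPM against 496 to 541 CPM. The monocyte and macrophage markers, led by Cd68, summed to 47.7 to 94.99 CPM in the Kdr knockdown and 31.0 and 45.2 CPM in its scramble. They went the other way in the double knockdown, at 47.4 to 64.7 CPM against 67.2 and 71.3 CPM. The G2/M markers, led by Top2a, summed to 801 to 949 CPM in the Kdr knockdown and 687 to 766 CPM in its scramble. Kit of the HSC list was at a mean of 1453 CPM in the Kdr knockdown and 1658 CPM in its scramble, and Cd79b of the B cell list at 42.8 and 31.8 CPM. With the 2 double knockdown hairpins Kit was at 1494 and 1412 CPM against 1536 CPM, and Cd79b at 41.3 and 48.5 CPM against 34.1 CPM. The 7 granulocyte markers each had a log2 fold change below 0 in the double knockdown (median -1.21 beside -0.00054 over all genes), with sums of 292 to 2860 CPM against 1625 and 4540 CPM and Ngp the most abundant in the scramble. The endothelial and stromal markers, led by Cxcl12, summed to 1.098 to 4.16 CPM in the double knockdown, with Cdh5 at 0, and to 11.2 and 11.6 CPM in its scramble (median -2.27 over the 3 tested). None of these markers passed the test, and their part in the sirtuin values was not tested.

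Among all genes, 0.0149% of 20098 were called in the Kdr knockdown and 0.00498% of 20072 in the double knockdown. Of the members 0 of 8 were called in each by edgeR and by DESeq2, and 2 in each had an unadjusted p under 0.05, beside 8.9% and 9.85% of all genes. The difference between both responses had 0% of 21250 genes called (760 at an unadjusted p under 0.05, 3 called by DESeq2), and 0 of 8 members by edgeR and by DESeq2, 0 at an unadjusted p under 0.05. It was -0.09 for Sirt5 (95% interval -0.44 to 0.27), 0.05 for Sirt7 (-0.26 to 0.37) and -0.28 for Sirt4 (-0.57 to 0.02), on the log2 scale.

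**Figure D3:**
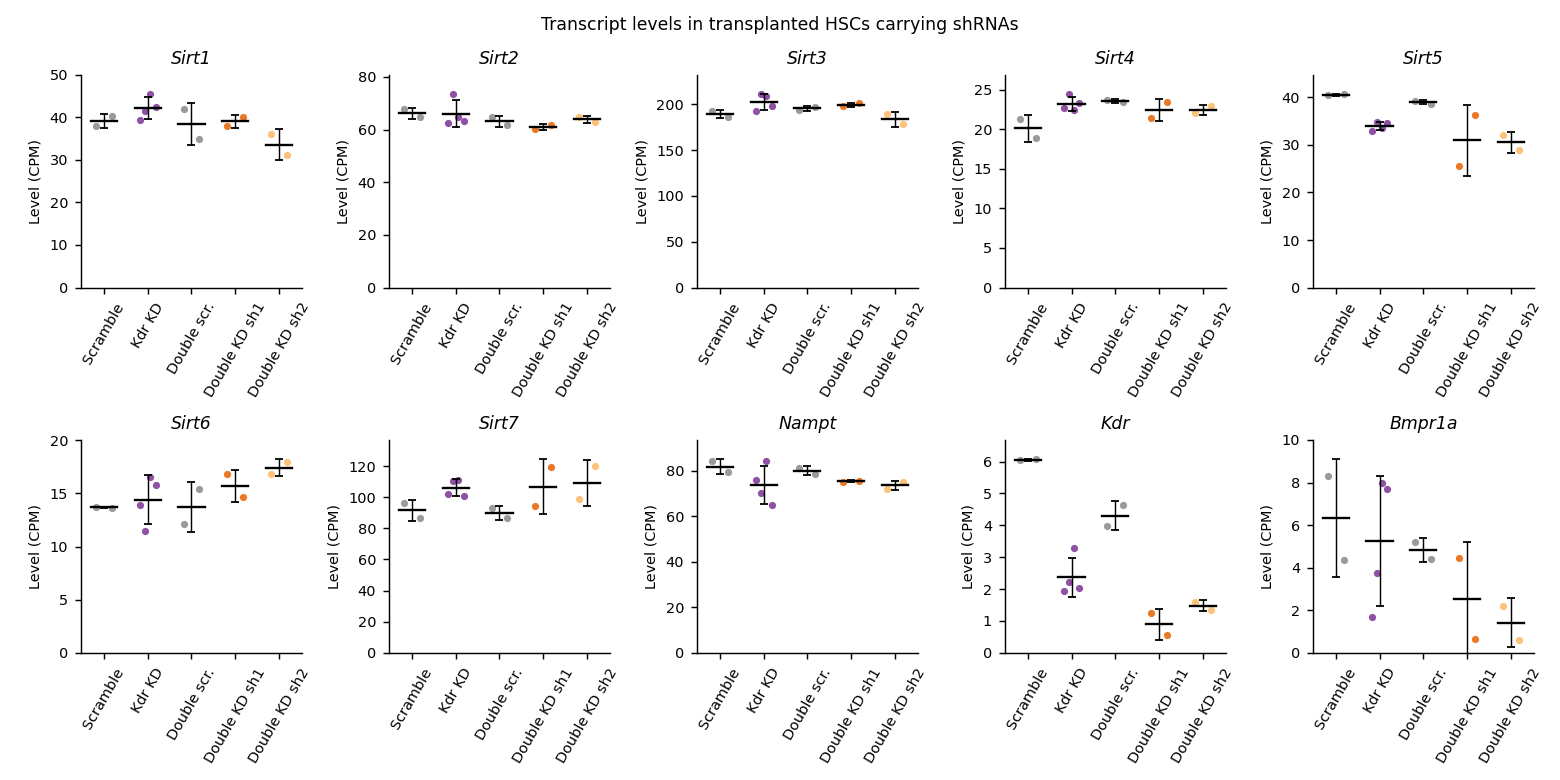
Level in CPM (linear axis from 0) of the 8 transcripts and of the 2 hairpin targets in HSCs recovered from transplant recipients. Points are libraries, horizontal bars are group means and error bars are SD (n = 2, and n = 4 for the Kdr knockdown). The 4 Kdr knockdown libraries hold 32.9 to 34.8 CPM of Sirt5 and the scramble 40.4 and 40.7 CPM, and Kdr is lower in each knockdown library than in its scramble.

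Of the other enzymes that consume NAD, Cd38 and Parp1 passed the test in at least 1 diet comparison of old mice, and both passed with Parp3 between OAL and YAL. In OCRRF against OCR 1 of 18 was called higher and 1 lower, beside 3.41% of all genes called. In OAL against YAL 1 of 18 was called higher and 2 lower, beside 14.8% of all genes called. Cd38, an NAD glycohydrolase of the cell surface, fell in OCR and rose on refeeding. It was at 79.9 ± 2.51 CPM in OAL and 56.1 ± 12.8 CPM in OCR (SD, n = 4 each; log2 fold change -0.50 ± 0.115 SE, adjusted p = 0.0062), with all OCR libraries lower. This was 1 of 18 NAD consumers called, beside 5.57% of all genes, and the call was lost with 1 fit of all groups (-0.51, adjusted p = 1). In OCRRF it was at 97.9 and 80.1 CPM (0.61 ± 0.147 SE against OCR, adjusted p = 0.0105). The marker calls given with Sirt3 belong to the same OCR and OAL libraries. On refeeding the megakaryocyte markers Gp9 (-0.58), Itga2b (-0.47) and Pf4 (-1.06), 3 of 4, were called lower, as were 2.71% of all genes. The list summed to 208 CPM in each OCRRF library and 238 to 337 CPM in OCR. Cd68 (-0.78), Nkg7 (-1.24) and Kit (-0.49) were also called lower, and Hba-a1 (1.66), Hbb-bs (1.56) and Ly6a (0.46) higher. The part of these markers in the Cd38 values and in the other refeeding calls was not tested. In young HSCs Cd38 was at 49.2 ± 6.09 CPM in YAL and 21.5 ± 9.79 CPM in YCR, where every YCR library was lower but the test was not passed (-1.18 ± 0.277 SE, adjusted p = 0.139). OAL exceeded YAL by 0.71 ± 0.098 SE (adjusted p = 0.0017). Parp1, the main NAD-consuming DNA damage sensor, fell on refeeding of old mice (146.2 ± 4.01 CPM, n = 2, against 197 ± 21.0 CPM in OCR, n = 4, -0.49, adjusted p = 0.0158) and was lower in OAL than in YAL (-0.35, adjusted p = 0.0377). Its call between OAL and YAL held in only 4 of 16 other settings, leaving out each library included (edgeR or DESeq2 adjusted p from 0.0038 to 0.148). That of Cd38 held there in 16 of 16. On refeeding the Parp1 call held in 10 of 14 and the Cd38 call in 12 of 14. Parp3, another DNA damage responsive member of that family, was at 27.5 ± 2.07 CPM in OAL and 44.4 ± 5.71 CPM in YAL (SD, n = 4 each, -0.68, adjusted p = 0.00602). Against OAL, Parp1 in OCR was 0.21 higher (adjusted p = 0.164). The other 16 NAD consumers measured did not pass in OCR against OAL or in OCRRF against OCR. In OCRRF against OAL 0 of 18 passed, with Parp1 at an adjusted p of 0.0496 but a fold under 1.2.

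Of 23 genes of NAD synthesis and salvage, Nampt among them, 0 passed the test in OCR against OAL (5.57% of all genes did) and 0 in OCRRF against OCR (3.41%). Under the 8 other settings 0 to 2 were called lower in each, with 0 called higher in the first and 0 to 1 in the second. In OCRRF against OAL 2 fell, beside 4.14% of all genes called, Nadk (-0.32, adjusted p = 0.0333) and Nadk2 (-0.28, adjusted p = 0.0493), which phosphorylate NAD to NADP. Under the other settings of that fit 0 to 3 genes were called lower and 0 to 2 higher. The marker calls of OCRRF against OAL given with Sirt3 belong to the same libraries, and their part was not tested. Nmrk1, the nicotinamide riboside kinase, was at 17.1 ± 2.09 CPM in OCR and 22.3 ± 1.75 CPM in OAL, with all OCR libraries lower (-0.37 ± 0.118 SE, adjusted p = 0.07). Nmnat3, a mitochondrial adenylyltransferase, was at 40.5 ± 4.59 against 48.1 ± 5.29 CPM (-0.23, adjusted p = 0.234), and Naprt, of the nicotinic acid route, at 41.0 ± 2.25 against 45.2 ± 3.23 CPM (-0.12, adjusted p = 0.582). Nmnat1, the nuclear adenylyltransferase, was at 14.2 ± 1.49 against 15.4 ± 1.35 CPM (-0.09, adjusted p = 0.804), and Nnmt, which methylates nicotinamide, was near the limit of these counts at 0.453 against 0.269 CPM (adjusted p = 0.626). The median over the list was -0.08 beside 0.02 over all genes. Between OAL and YAL, 1 of 22 fell, beside 7.93% of all genes called lower, Pnp (-0.49, adjusted p = 0.00941), a purine nucleoside phosphorylase. In both knockdowns 0 of 17 passed, beside 0.0149% (Kdr) and 0.00498% (double) of all genes. Between YCR and YAL 16 were measured and 0 passed, beside 0.364% of all genes.

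**Figure D4:**
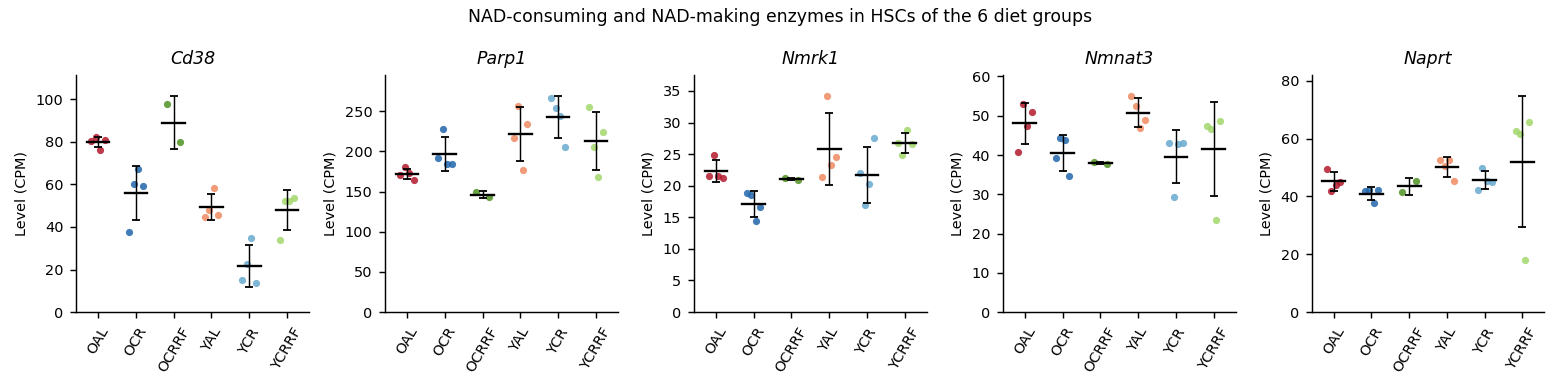
Level in CPM (linear axis from 0) of the NAD consumers Cd38 and Parp1 and of Nmrk1, Nmnat3 and Naprt, which make NAD, in the 6 diet groups. Points are libraries, horizontal bars are group means and error bars are SD (n = 4, and n = 2 for OCRRF). Cd38 is at 79.9 CPM in OAL, 56.1 in OCR and 89.0 in OCRRF, and at 49.2, 21.5 and 48.1 CPM in YAL, YCR and YCRRF, and the low YCRRF point for Nmnat3 and Naprt is replicate 3.

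Regulators of the sirtuins and the zinc-dependent deacetylases gave further calls. In OCR against OAL, 3 of 11 regulators passed, beside 5.57% of all genes. E2f1, a cell-cycle transcription factor that acts on the Sirt1 gene, rose by 1.24 (34.6 ± 7.44 against 14.8 ± 1.43 CPM, adjusted p = 1.18e-07), while Foxo1 fell by 0.76 (adjusted p = 1.79e-06) and Ppargc1a, the coactivator of mitochondrial biogenesis, fell by 0.77 (5.70 against 9.83 CPM, adjusted p = 0.00138). On refeeding, E2f1 fell by 1.53 (adjusted p = 1.54e-07) and Ppargc1a rose by 0.75 (adjusted p = 0.0357). The Ppargc1a call was lost with DESeq2 size factors. Under the 8 other settings 0 to 2 regulators were called higher there and 1 lower. The 10 G2/M genes rose 10 of 10 under lifelong CR and fell 10 of 10 on refeeding. Top2a, the topoisomerase of dividing cells, was at 148 ± 25.4 CPM in OCR, 38.9 ± 4.40 CPM in OAL and 44.5 ± 3.67 CPM in OCRRF. Mki67 was at 117, 34.3 and 36.1 CPM and Ccnb2 at 45.4, 10.5 and 12.2 CPM (means of OCR, OAL and OCRRF). Of 11 zinc-dependent deacetylases Hdac6 rose in OCR (0.39, adjusted p = 0.0306) and fell with Hdac2 on refeeding (-0.55 and -0.51, adjusted p = 0.0164 and 0.014). Refeeding is compared with the OCR libraries that also serve the first comparison. Under the 8 other settings, 7 to 10 of the G2/M genes were called higher in OCR against OAL and 3 to 10 lower on refeeding. With 1 fit of all groups, no NAD consumer, zinc-dependent deacetylase or gene of the mitochondrial unfolded protein response was called in OCR against OAL or on refeeding, and no mitochondrial substrate on refeeding. In that fit Cd38, Ppargc1a, Hdac6 and Hspe1 each had an adjusted p of 1 in OCR against OAL, while E2f1, Foxo1 and Acadl kept their calls there.

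In OAL against YAL, 5 of the 11 regulators fell, beside 7.93% of all genes called lower. They were E2f1 (-1.29), Foxo3 (-0.65), Rps19bp1 (-0.55), Trp53 (-0.39), which encodes p53, and Ccar2 (-0.30), an inhibitor of Sirt1. Of the zinc-dependent deacetylases Hdac8 rose (0.54) and Hdac10 (-0.47), Hdac3 (-0.28) and Hdac2 (-0.27) fell. Under the 8 other settings 3 to 5 regulators and 1 to 3 of these deacetylases were called lower. In OCRRF against OAL, Foxo1 (-0.31, adjusted p = 0.0497) and Hdac2 (-0.30) fell, and under the other settings 0 to 2 regulators and 0 to 4 deacetylases were called lower. The part of the markers called in that comparison, given with Sirt3, was not tested.

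Of 12 known substrates of the mitochondrial sirtuins, 1 was called in OCR against OAL and 2 in each refeeding comparison of old mice, beside 5.57%, 3.41% (OCRRF against OCR) and 4.14% (OCRRF against OAL) of all genes. Acadl, a fatty acid oxidation enzyme deacetylated by Sirt3, fell in OCR against OAL (144.4 ± 8.13 against 203.1 ± 11.1 CPM, -0.48, adjusted p = 0.000144). Idh2, the mitochondrial isocitrate dehydrogenase, fell on refeeding (-0.51, adjusted p = 0.0114), as did Ppif (-0.44, adjusted p = 0.03). Between OAL and YAL 4 of 12 fell, namely Idh2 (-0.60), Acss1 (-0.52), Ndufa9 (-0.34) and Atp5a1 (-0.27), beside 7.93% of all genes called lower, and 1 to 4 were called lower under the 8 other settings. In OCRRF against OAL, Acadl (-0.30, adjusted p = 0.0343) and Pdha1, a subunit of pyruvate dehydrogenase (-0.27, adjusted p = 0.0471), fell, and under the 8 other settings 0 to 7 of the 12 were called lower. Markers called in the same comparison are given with Sirt3, and their part was not tested. Of 7 genes of the mitochondrial unfolded protein response, a pathway tied to Sirt7 in HSCs, 5 fell in OAL against YAL, beside 7.93% of all genes called lower. They were the chaperonins Hspe1 (-0.51, adjusted p = 0.0171) and Hspd1 (-0.36, adjusted p = 0.0121), the proteases Lonp1 (-0.47) and Clpp (-0.36), and the stress transcription factor Ddit3 (-0.44). The median over the 7 genes was -0.44 beside 0.05 over all genes, and under the 8 other settings of the fit 1 to 5 were called lower. Markers called between OAL and YAL are given with the members in that comparison. Their part in the age calls of these lists was not tested. In OCR against OAL 1 of 7 rose, Hspe1 (0.38, adjusted p = 0.0192), and it fell again on refeeding (-0.49, adjusted p = 0.0322).

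Chromatin at the genes was read from ATAC-seq counts in 131918 consensus peaks of OCR (n = 4) and OCRRF (n = 2), with 15721335 to 19558148 counts per library. From 5000 bases before each gene start to the gene end there were 28 peaks, and 26 passed the filter. Of all peaks tested 0.221% were called (adjusted p under 0.05, fold over 1.5 and mean log2 CPM over 1.5), and 0 of the 26 were (DESeq2 called 0 of 17 tested). The peak over the Nampt promoter (chr12:32819767-32821273) was the most accessible at the 8 genes, above 99.0% of peaks. It held 68.6, 75.8, 70.8 and 67.7 CPM in OCR and 85.8 and 76.4 CPM in OCRRF, so that both refed libraries lay above all restricted ones (0.20 ± 0.065 SE on the log2 scale, unadjusted p = 0.00389, adjusted p = 0.169). A Sirt3 peak 8020 bases into the gene (chr7:140873842-140874735) held 15.9, 17.0, 19.8 and 17.8 CPM in OCR and 14.2 and 13.3 CPM in OCRRF (-0.36 ± 0.123 SE, unadjusted p = 0.00542, adjusted p = 0.193). The Sirt6 promoter peak was at 24.8 ± 1.94 CPM in OCR and 21.3 ± 1.02 CPM in OCRRF (-0.22, adjusted p = 0.385). At an unadjusted p under 0.05 were 3 of the 26 peaks and 14439 of all 123372.

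**Figure D5:**
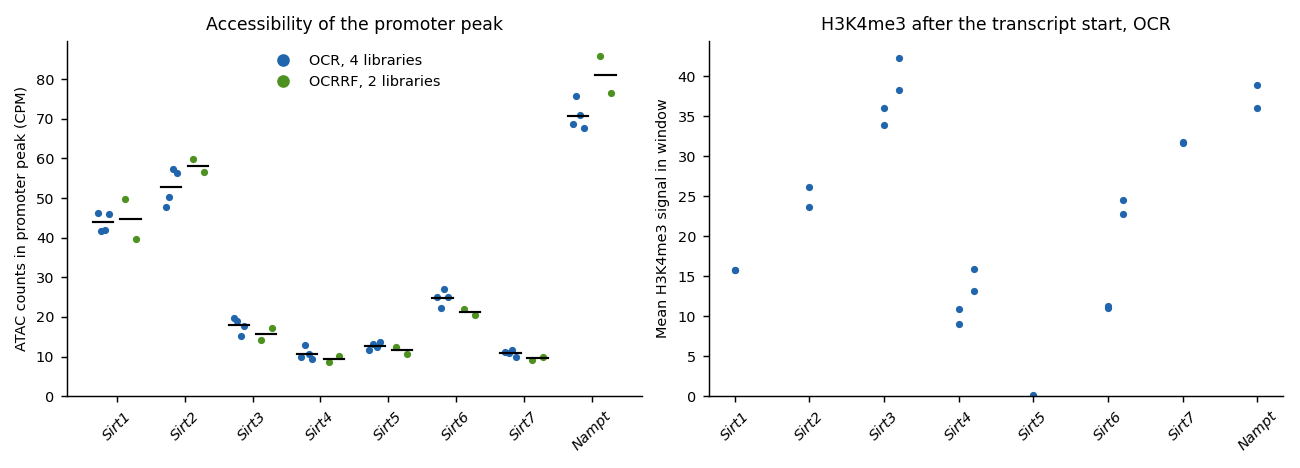
Left, ATAC-seq CPM (linear axis from 0) in the peak over each RefSeq promoter, with points for libraries and bars for the means of OCR (n = 4) and OCRRF (n = 2). Right, mean H3K4me3 signal in each transcript's window in the 2 OCR libraries, with a second column of points where a gene has 2 transcripts in the file. Nampt has the highest accessibility (70.8 and 81.1 CPM) and Sirt3 the highest H3K4me3 signal (42.4 and 38.3).

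The ETS factor PU.1, a regulator of myeloid and lymphoid commitment, was mapped by ChIP-seq in 2 libraries each of OAL, OCR and OCRRF, with 2262 to 5464 peaks per library. The replicates of each group were made with antibodies from different suppliers, and the peak lists were compared without a test. Only Sirt3 and Sirt7 had a peak in the same windows. At Sirt7 the summit lay at -2797 to -2737 bases relative to the gene start in 5 of 6 libraries, with a fold enrichment of 11.7 and 11.5 in OAL, 11.9 and 7.17 in OCR and 9.00 in OCRRF replicate 2. OCRRF replicate 1 listed no peak there. The site is in the 3′ UTR of the neighbouring gene Mafg, and the accessible peak over it held 6.27 CPM in OCR and 6.62 CPM in OCRRF. At Sirt3 the summit lay 4763 to 4784 bases inside the gene, in an intron (2 of the 3 peaks reach into an exon), with a fold enrichment of 7.11 and 9.11 in OCR and 7.59 in OCRRF replicate 2. No peak was listed there in either OAL library or in OCRRF replicate 1, and OCR replicate 1 had the most peaks overall.

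Both summits are shown because they are the sites of PU.1 enrichment nearest to a sirtuin gene. The hexamer GAGGAA, part of the PU.1 recognition sequence, was searched on both strands and is in capitals. It occurs in 57.1% to 60.8% of the windows of 150 bases around all summits of a library. The Sirt7 window of 150 bases holds it once, next to a CACGTG. Of that window only the 30 bases around the match are printed, so the match is in the printed stretch by choice. The Sirt3 window is printed in full and does not hold it, which says only that these letters are not in this window.
Sirt7, PU.1 summit in the first OAL library, chr11:120627975-120628004, plus strand: gaccacgtggcaGAGGAAtggagaagtgca
Sirt3, PU.1 summit in the first OCR library, chr7:140877456-140877605, plus strand: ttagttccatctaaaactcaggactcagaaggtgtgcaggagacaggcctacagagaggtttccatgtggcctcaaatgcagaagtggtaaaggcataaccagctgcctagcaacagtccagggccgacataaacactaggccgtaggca

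Histone marks were analysed for OCR only (2 libraries per mark, with OAL not analysed here), as the mean signal of each of 31552 promoter windows. The active mark H3K4me3 was highest at Sirt3, with 42.4 and 38.3 for its stronger transcript, above 94.7% and 91.9% of promoters. Nampt had 38.9 and 36.1, Sirt7 31.8 and 31.6, Sirt2 26.2 and 23.7, and Sirt6 22.7 and 24.5. Sirt1 had 15.8 in both libraries and Sirt4 13.2 and 15.9. The window given for Sirt5 does not cover the start of its gene and held 0.111 and 0.0756, so no promoter value is available for it. The repressive mark H3K27me3 was below the library median (0.312 and 0.316) at each of the 7 genes other than Sirt5.

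The members varied with different genes across the 22 diet libraries, which share diet, age and depth differences, so the correlations of log2 levels are a description. They include YCRRF replicate 3. Sirt1 and Nampt had r = 0.70 (0.78 after subtracting group means) and Sirt2 and Sirt5 r = 0.73 (0.66), while Sirt6 and Nampt had r = -0.62 (-0.67). Without that library the values were 0.63 (0.59), 0.60 (0.30) and -0.50 (-0.47). Among 12330 genes of at least 5 CPM, the levels most like those of Sirt1 were Ift140, Map9 and Tprn (r = 0.87, 0.87 and 0.86), and most like Nampt were Pex3, Pcx and Ugcg (0.85, 0.85 and 0.85). Sirt3 was most like Smim1, Dus3l and Gm10353 (0.86, 0.83 and 0.82), and Sirt7 most like Kcnn4, Rfng and Ptpn6 (0.92, 0.92 and 0.91). The Sirt7 values came down to 0.69, 0.69 and 0.77 once group means were subtracted. For Sirt2 they were Acot8, Maco1 and Cc2d1a (0.88, 0.86 and 0.86), for Sirt4 Nfe2l1, 4930555A03Rik and Qprt (0.81, 0.80 and 0.80), for Sirt5 Scamp2, Fam193b and Iars (0.86, 0.85 and 0.84), and for Sirt6 Kri1, Lefty1 and Sf3b5 (0.77, 0.77 and 0.76). Without YCRRF replicate 3, a choice made after these values were seen, the same 3 genes stayed the most alike for Sirt7, 1 of the 3 did for Sirt3 and for Nampt, and none did for Sirt1, Sirt2, Sirt4, Sirt5 or Sirt6, so most of these names rest on that library. The 3 genes named for Sirt1, for example, then had r = 0.68, 0.66 and 0.64.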

How the data were processed

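The authors trimmed reads, aligned them to mm10 with STAR against GENCODE M22 and deposited raw counts per gene from featureCounts, whose strand setting is not given in the sources used here. They deposited ATAC-seq counts in consensus peaks, PU.1 peaks from MACS with fold enrichment (a ratio), −log10 q and score columns, and the H3K4me3 and H3K27me3 signal per promoter, from 2000 bases (H3K27me3) or 750 bases (H3K4me3) after the transcript start. Counts were fitted per comparison, on its own libraries, with the quasi-likelihood test of edgeR 4.0.16 in R 4.3.3 (filterByExpr, TMM, Benjamini-Hochberg adjustment over all genes), called at an adjusted p under 0.05 and a fold over 1.2 (ATAC 1.5, with a mean log2 CPM over 1.5). Levels are TMM-scaled CPM, in 1 scaling for the 22 diet libraries and another for the 12 of transplanted cells, and CPM per kb uses merged exon length from GENCODE M21. DESeq2 1.42.0, other scalings and filters, a replicate block, and leaving out each library were alternatives, and the fits were tested on simulated data. Genes named are the 8 members, the 3 most alike for each, the called members of each list (3 per direction where over 6 were called), and Nmnat1, Nmnat3, Nmrk1, Naprt, Parp1, Cd38 and Nnmt. The members and lists were chosen with earlier results of these data known. The study counts replicates as HSC samples from mice, without saying which animals or how many went into a library, so p-values measure the spread between these samples. Of 58 samples, 50 had files; the 8 others, OAL among them for ATAC and histone marks, were not analysed here. RNA from transplanted cells was extracted, amplified and sequenced with other reagents and instruments than the diet libraries, so levels are not compared across the 2 experiments. Sequences are from RefSeq and GRCm38.p6. Some marker genes of the lists are not reported here.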

Additional observations from a re-analysis of the deposited data

Results flagged for a closer look

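Sets of 4 libraries were examined for the RNA levels of the 8 members and for the OCR values of the 26 tested ATAC-seq peaks at these genes. In 4 of the 74 sets a library lay far from the others by Dixon's criterion, and chance alone gives about 1 in 20. All 4 were RNA levels. Sirt4 was at 24.6 CPM in YAL replicate 3, with the others at 14.7 to 16.0 CPM. Sirt5 was at 33.5 CPM in OAL replicate 2, with the others at 28.1 to 29.0 CPM. Sirt6 was at 15.8 CPM in YAL replicate 1 beside 12.4 to 12.8 CPM, and at 20.2 CPM in YCR replicate 2 beside 9.96 to 11.6 CPM.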

How the results depend on the processing

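Over 191 alternatives for the count of members called (refits, and the adjusted p alone as the rule), 183 kept 0 and 8 gave 1. For OCR against OAL, leaving out 1 library gave 0 to 1 (Sirt3 without OAL replicate 3, -0.28, adjusted p = 0.0443). For OCRRF against OAL, DESeq2 and DESeq2 size factors each gave 1 (Sirt3, -0.28, adjusted p = 0.0183 and 0.0407). For OAL against YAL, DESeq2 (Sirt7, -0.31, adjusted p = 0.0487) and no filter on low counts (Sirt7, -0.38, adjusted p = 0.031) each gave 1, and leaving out 1 library gave 0 to 1. Sirt3 in OCR against OAL had adjusted p-values from 0.0373 (DESeq2, fold under 1.2) to 0.953 (1 fit of all groups). The ratio of the highest to the lowest group mean of Sirt3 was 1.25 with TMM within age in place of 1.40, with YCR lowest. Of the 10 member values with an unadjusted p under 0.05, none turned sign, and 142 refits kept their side of the threshold while 8 gained a call. Of the other 78, 125 of 1290 refits had the other sign, so their directions are not settled. Libraries of the same replicate number in different groups were weakly correlated (correlations of deviations from -0.14 to 0.14). In OCR against OAL 2 of 4 such pairs were at 0.142, while pairs with different numbers reached at most 0.0933. Whether replicate numbers pair the libraries there is not settled. With a replicate block the members called stayed at 0 in each comparison. Calls over all genes ranged with the settings from 212 to 1927 in OCR against OAL, 64 to 3437 in OCRRF against OCR (3437 with the replicate block), 0 to 3906 in OCRRF against OAL and 1651 to 6671 in OAL against YAL. With a TMM from genes of at least 5 CPM, OCRRF against OAL had 754 higher and 54 lower calls in place of 528 and 788, and leaving out OCRRF replicate 1 or OAL replicate 3 gave 38 or 386. Leaving out 1 library gave 352 (without OCRRF replicate 1) to 2755 (without OCR replicate 3) calls in OCRRF against OCR, 1475 (without OAL replicate 1) to 5357 (without YAL replicate 4) in OAL against YAL, and 6 to 27 in YCR against YAL in place of 68. In the young and knockdown groups calls ranged from 7 to 454 (YCR against YAL), 0 to 538 (YCRRF against YCR), 0 to 40 (YCRRF against YAL), 3 to 303 and 0 to 332 (Kdr and double knockdown). The old minus young difference had 3 to 207 calls (207 with DESeq2) in place of 9, and 2 to 27 on leaving out 1 library. Of the called list genes, 1179 refits kept the call, 400 lost it and 0 reversed. At Sirt4 and Sirt6, with 96 to 829 counts per diet library, counting error limits precision more than at the other members. ATAC calls ranged from 98 to 762 peaks and included no member peak.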
